A study of Mus musculus with 3 samples.

Results

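Interferon-high neutrophils are the neutrophils of mouse blood that carried 3 or more unique molecular identifiers (UMIs, counted transcript tags) of Ifit1, Ifit3, Rsad2 and Isg15 in sum. They numbered 182 cells among 1966 neutrophils and 23870 barcodes, and they were set against neutrophils with a 4-gene sum of 0, of which there were 1454. Neutrophils were barcodes with at least 200 genes, a summed count of 5 or more for Csf3r, Cxcr2, Mmp9 and Il1r2, at most 1 UMI of Csf1r, at most 2 of Cd79a, Cd79b and Ms4a1, and at most 1 of Cd3e, Cd3d and Cd3g. The 330 neutrophils with a sum of 1 or 2 belonged to neither arm.

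The cells came from peripheral blood of untreated male mice, with 1 library each at 8, 9 and 10 weeks of age, here called replicates 1, 2 and 3. No allele, strain or agent is named in the labels. Red cells were lysed, the remaining cells were sorted on the DNA dyes DAPI and Draq5, fixed, and profiled with the probe-based fixed-RNA kit of 10x Genomics, in which probes for 19059 genes are counted in droplets. The labels do not say whether the libraries came from separate animals, so p-values may measure only technical spread between them. Both arms always came from the same library.

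The libraries held 11105, 5736 and 7029 barcodes with a median of 3539, 3138 and 3086 UMIs. Gated neutrophils numbered 1259, 354 and 353, or 11.4%, 7.01% and 5.32% of barcodes with at least 200 genes, at a median of 2810, 2671.5 and 2589 UMIs. Between pairs of libraries, 48 to 101 barcode sequences occurred in both, and none of these was in the matched arms of both libraries.

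Type I interferons are secreted by infected or stimulated cells and bind the receptor made of IFNAR1 and IFNAR2. The kinases JAK1 and TYK2 then phosphorylate STAT factors, which join IRF9 and bind a DNA element called the interferon-stimulated response element (ISRE) in the promoters of interferon-stimulated genes. Their products block viral RNA and protein synthesis, sense nucleic acids, attach the ubiquitin-like protein ISG15 to other proteins and raise antigen presentation. Neutrophils carry this receptor, and blood neutrophils with high interferon-stimulated transcripts are known from healthy mice and humans.

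The 4 genes that define the cells are such targets. Ifit1 and Ifit3 encode tetratricopeptide proteins, of which IFIT1 binds viral RNA. Rsad2 encodes viperin, a radical enzyme that makes a chain-terminating nucleotide, and Isg15 encodes the ubiquitin-like modifier. A core ISRE, spelled GAAANNGAAA or TTTCNNTTTC on the other strand, lay within the 250 bases before the RefSeq transcription start of all 4. The stretches around the matches are shown to let the element be read in each rule gene, in GRCm38.p6, 5′ to 3′ on the strand of the gene, with the matches in capitals. The Ifit1 stretch is chr19:34640760-34640838 on the plus strand, that of Ifit3 is chr19:34583348-34583441 on the plus strand, that of Rsad2 is chr12:26456538-26456597 on the minus strand and that of Isg15 is chr4:156200850-156200921 on the minus strand. The matches began or ended nearest to the start at 75 bases for Ifit1, 112 for Ifit3, 110 for Rsad2 and 56 for Isg15, whose 3 matches overlap.
Ifit1: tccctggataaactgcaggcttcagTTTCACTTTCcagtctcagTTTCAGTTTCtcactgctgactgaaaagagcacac
Ifit3: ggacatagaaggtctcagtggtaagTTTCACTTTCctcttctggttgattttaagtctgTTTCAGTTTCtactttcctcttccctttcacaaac
Rsad2: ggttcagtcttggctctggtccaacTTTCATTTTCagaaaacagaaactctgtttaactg
Isg15: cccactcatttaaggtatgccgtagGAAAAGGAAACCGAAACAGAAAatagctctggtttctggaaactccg

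Interferon-high cells made up 7.94% of gated neutrophils in replicate 1 (100 of 1259, exact 95% interval 6.51 to 9.58), 16.7% in replicate 2 (59 of 354, 12.9 to 21.0) and 6.52% in replicate 3 (23 of 353, 4.17 to 9.62), a mean of 10.4% ± 5.50 (SD, n = 3). These intervals and those below cover counting error only. Replicate 2 stood above the other two libraries, with an interval that did not overlap theirs. At the same sum of 3 or more, B cells gated on Cd79a, Cd79b and Ms4a1 held 0.642%, 4.82% and 1.80% and T cells gated on Cd3e, Cd3d and Cd3g held 3.68%, 6.22% and 3.78%, at medians of 3237, 3204 and 3077 UMIs in B cells and 3874, 3934 and 3590 UMIs in T cells. Replicate 2 thus had the highest share in all 3 kinds of cell. After random thinning of every cell to 1000 UMIs, interferon-high shares were 2.79%, 7.62% and 2.03% in neutrophils, 0.266%, 1.33% and 0.351% in B cells and 0.906%, 1.74% and 0.407% in T cells. By these shares neutrophils stayed above both lymphocyte gates in each library. In replicate 3 the thinned shares rested on 7 of 345 neutrophils (0.820 to 4.14) and 3 of 737 T cells (0.0840 to 1.18), and these intervals overlapped.

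**Figure D1:**
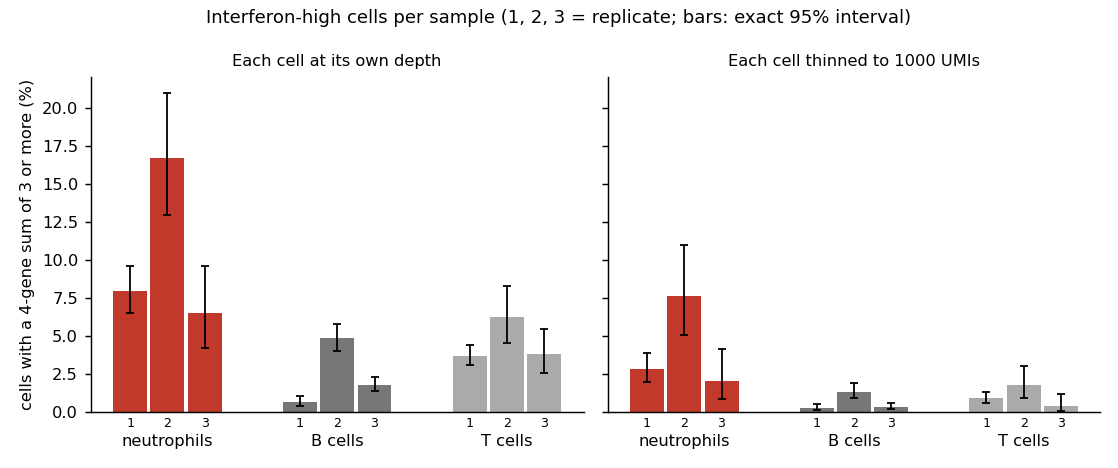
Percentage of gated neutrophils, B cells and T cells with a 4-gene sum of 3 or more, per replicate, at each cell's own depth and thinned to 1000 UMIs. Bars are libraries, and error bars are exact 95% binomial intervals. Replicate 2 is highest in every kind of cell, with 16.7% of neutrophils at full depth and 7.62% after thinning.

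The threshold cut through a graded distribution. The sums just inside it, at 3 UMIs, held 34, 8 and 9 cells, and those just outside it, at 2 UMIs, held 52, 25 and 17. Sums of 5 or more held 51, 40 and 10 cells, so 40 of the 59 interferon-high cells of replicate 2 lay well inside. Of the 182 cells, 59 carried UMIs of 1 rule gene, 54 of 2, 38 of 3 and 31 of all 4. Rsad2 was seen in 87%, 94.9% and 82.6% of interferon-high cells and Isg15 in 69%, 69.5% and 56.5%, while Ifit3 was seen in 36%, 44.1% and 30.4% and Ifit1 in 25%, 35.6% and 21.7%. These values follow from the rule and are a description.

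Each rule gene was also examined where it had no part in the choice, in arms picked on the sum of the other 3 genes. Ifit1 had 209, 439 and 155 CPM (UMI counts scaled to a common library total after TMM, edgeR's correction of library sizes) in interferon-high cells, against 6.83, 23 and 0 CPM in interferon-low cells. Its log2 fold was 4.54 (SE 0.39, adjusted p = 1.07e-06 in edgeR's quasi-likelihood test). Isg15 had 686, 796 and 284 CPM in interferon-high cells, against 43.5, 89.6 and 40.8 CPM in interferon-low cells (log2 fold 3.49, SE 0.25, adjusted p = 4.32e-09). The arms of both genes did not overlap, so cells picked without the gene still held more of it when summed per library. Rsad2 had 1569, 1955 and 912 CPM in interferon-high cells, against 104, 133 and 75.3 CPM in interferon-low cells, a log2 fold of 3.86 (SE 0.24, adjusted p = 2.62e-54 by the same edgeR test). Ifit3 had 285 UMIs in interferon-high cells, against 2 UMIs in interferon-low cells (log2 fold 6.96, SE 0.42, adjusted p = 1.15e-56 by edgeR). In the Rsad2 and Ifit3 fits edgeR estimated no spread between genes' variances, which treats the spread as known, so these p-values are not to be read literally. Ifit1 and Ifit3, with 6 and 2 UMIs in interferon-low cells, passed the count filter only through interferon-high cells. All 4 genes belong to the rule, so their values here are a description and no separate support.

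Cells with a higher rule sum also held more transcripts of other interferon genes. The summed UMIs of 35 further effector and OAS genes per 10000 UMIs were 19.3, 33.2, 45.1, 48.2, 68.3 and 87.3 for rule sums of 0, 1, 2, 3, 4 and 5 or more in replicate 1. They were 24.6, 40.4, 39.0, 54.4, 50.4 and 110 in replicate 2, and 16.7, 29.3, 48.5, 59.2, 62.6 and 83.7 in replicate 3. Sums of 2 and 3 lay close together in replicate 1, and the order was not monotonic in replicate 2, where sums of 3 and 4 held 8 and 11 cells. No break separated the cells just outside the threshold from those just inside it.

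**Figure D2:**
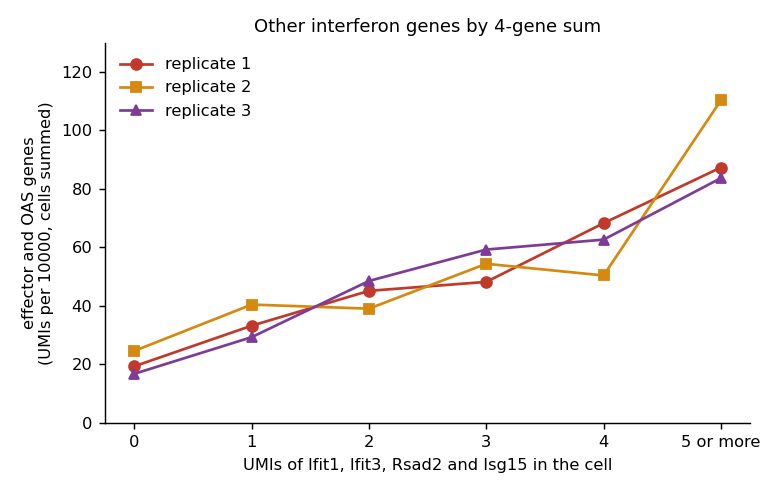
Summed UMIs of 35 effector and OAS genes other than the rule genes and Ifit3b, per 10000 UMIs (y axis), for neutrophils grouped by their count of the 4 rule genes (x axis), 1 line per replicate, cells of a class summed. At a rule sum of 5 or more the values are 87.3, 110 and 83.7, against 19.3, 24.6 and 16.7 at a sum of 0, with intermediate values between.

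For the comparison of the arms, each interferon-high cell was paired with the interferon-low cell of its own library that had the nearest total UMI count, at a gap of at most 10%. This gave 98, 57 and 22 pairs, 177 in all, with median totals of 2929.5, 2863 and 2811 UMIs in interferon-high cells and 2929.5, 2871 and 2817.5 UMIs in interferon-low cells. Median genes per cell were 1304.5, 1255 and 1217 in interferon-high cells and 1311.5, 1261 and 1213.5 in interferon-low cells. In these pairs, an interferon-high cell carried a median of 20, 25 and 20.5 UMIs of the 35 effector and OAS genes, against 4.5, 6 and 3.5 UMIs in interferon-low cells. The distributions overlapped: interferon-high cells ran from 2 to 86, 4 to 84 and 8 to 45 UMIs, and interferon-low cells reached 30, 27 and 13 UMIs, with 5, 2 and 3 cells that had none.

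**Figure D3:**
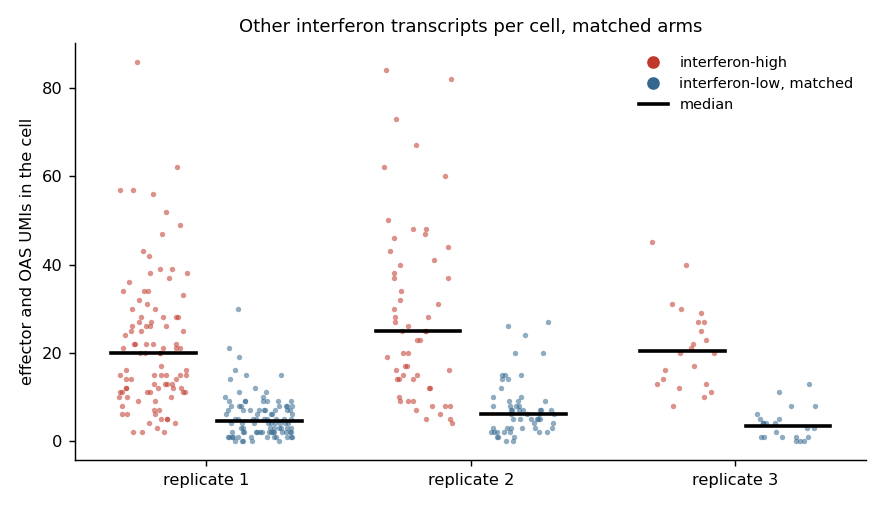
UMIs of 35 effector and OAS genes in each cell of the matched arms (y axis), by replicate, with 1 point per cell and a black bar at the median. Medians are 20, 25 and 20.5 in interferon-high cells and 4.5, 6 and 3.5 in matched interferon-low cells, and the clouds overlap.

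Counts were summed per library and arm and tested with edgeR's quasi-likelihood test with the library as a block, after the 4 rule genes had been removed. Of 2849 genes tested, 77 were higher in interferon-high neutrophils (2.7%) and 8 were lower (0.281%) at a Benjamini-Hochberg adjusted p under 0.05, 2.98% in either direction. At an unadjusted p under 0.05 the counts were 180 higher and 86 lower. The median log2 fold of all genes was -0.0060. The 2 arms did not overlap across the 3 libraries for 13% of all genes tested, and 7.27% were higher without overlap. Without replicate 1, 2 or 3, the genes called higher numbered 52, 47 and 89 and those called lower 1, 2 and 29.

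The gene lists were read against these shares. The count filter keeps a gene that is high in either arm, so the tested members favour genes that differ: of 32 effector, 9 OAS, 15 sensor, 17 ISG15-linked, 15 STAT and IRF, 11 receptor and kinase, 19 GTPase, 21 class I, 8 Schlafen and 6 IFITM genes listed, 12, 6, 9, 14, 8, 8, 8, 11, 5 and 4 were tested. Named members that passed this filter only through interferon-high cells included Cmpk2, Ifi47, Oasl1, Ddx58, Ifih1, Eif2ak2, Usp18, Herc6, Trim21, Gbp2, Irgm1 and Slfn5. Their p-values are no separate support. No member of these lists but Ifitm1 was called lower in edgeR, and Ifitm1 was also the single one lower at an unadjusted p under 0.05. DESeq2 called none lower. It called 8 effector, 4 OAS, 4 sensor, 4 ISG15-linked and 3 STAT and IRF genes higher. Of the GTPase, class I, Schlafen and IFITM genes, DESeq2 called 3, 2, 3 and 1 higher.

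Among the interferon effector genes, 10 of 12 tested members were higher with a median log2 fold of 2.39. Without Ifit3b, a near-identical copy of a rule gene, they were 9 of 11 with a median of 2.27. Cmpk2, a mitochondrial nucleotide kinase that lies beside Rsad2 in the genome, had 544, 460 and 427 CPM in interferon-high cells, against 19.6, 40.7 and 15.9 CPM in interferon-low cells (log2 fold 4.23, SE 0.29, adjusted p = 8.53e-10). Ifi47, an immunity-related GTPase, had 93.4, 178 and 148 CPM in interferon-high cells, against 3.27, 11.6 and 0 CPM in interferon-low cells, where it rested on 3 UMIs. The pooled ratio was 22.7, with a counting interval of 7.43 to 113, and the adjusted p of the edgeR fit was 1.55e-05. Neither gene's arms overlapped. Isg20, a 3′ exonuclease that degrades viral RNA, rose by a log2 fold of 2.66, Rtp4, a receptor transporter protein, by 2.51, and Ly6e, a surface protein that restricts coronavirus entry, by 1.31. Ifi35 had a log2 fold of 1.5 at an adjusted p of 0.0546 and Ifi27 one of 0.09 at 0.984.

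Ifit3b was at 284, 460 and 131 CPM in interferon-high cells and had no UMI in interferon-low cells, where 3 counts over the arm set the floor and make it at least 57.8-fold higher (adjusted p = 4.58e-09 in edgeR). It is a near-identical neighbour of the rule gene Ifit3, so the value is uncertain and is no separate support, since no source used here says how the probes tell the copies apart. The stretch before its start, shown beside that of Ifit3 above to let the copies be compared, is chr19:34607744-34607837 on the plus strand in GRCm38.p6 and holds the same letters in all 94 bases, with the ISRE matches in capitals.
Ifit3b: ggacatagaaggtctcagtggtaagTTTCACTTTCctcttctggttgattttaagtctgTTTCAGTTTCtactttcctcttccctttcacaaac

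In the OAS family, whose members make 2′-5′ oligoadenylate on double-stranded RNA or resemble the enzymes that do, 5 of 6 tested genes were higher, with a median log2 fold of 2.78. Oasl1, which in mice represses translation of Irf7 mRNA, had 327, 386 and 493 CPM in interferon-high cells, against 42.5, 34.9 and 0 CPM in interferon-low cells (log2 fold 3.38, SE 0.32, adjusted p = 9.25e-08). Oas2 had 334, 435 and 329 CPM in interferon-high cells, against 62.2, 23.3 and 15.9 CPM in interferon-low cells (log2 fold 3.05, SE 0.30, adjusted p = 2.07e-07). Oas3, the member that prefers long double-stranded RNA, had 671, 888 and 674 CPM in interferon-high cells, against 78.5, 157 and 47.8 CPM in interferon-low cells (log2 fold 2.89, SE 0.20, adjusted p = 8.56e-10). None of these arms overlapped. Oasl2, a relative with ubiquitin-like domains, averaged 1233 ± 11.2 CPM in interferon-high cells and 256 ± 63.5 CPM in interferon-low cells (SD, n = 3 each).

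**Figure D4:**
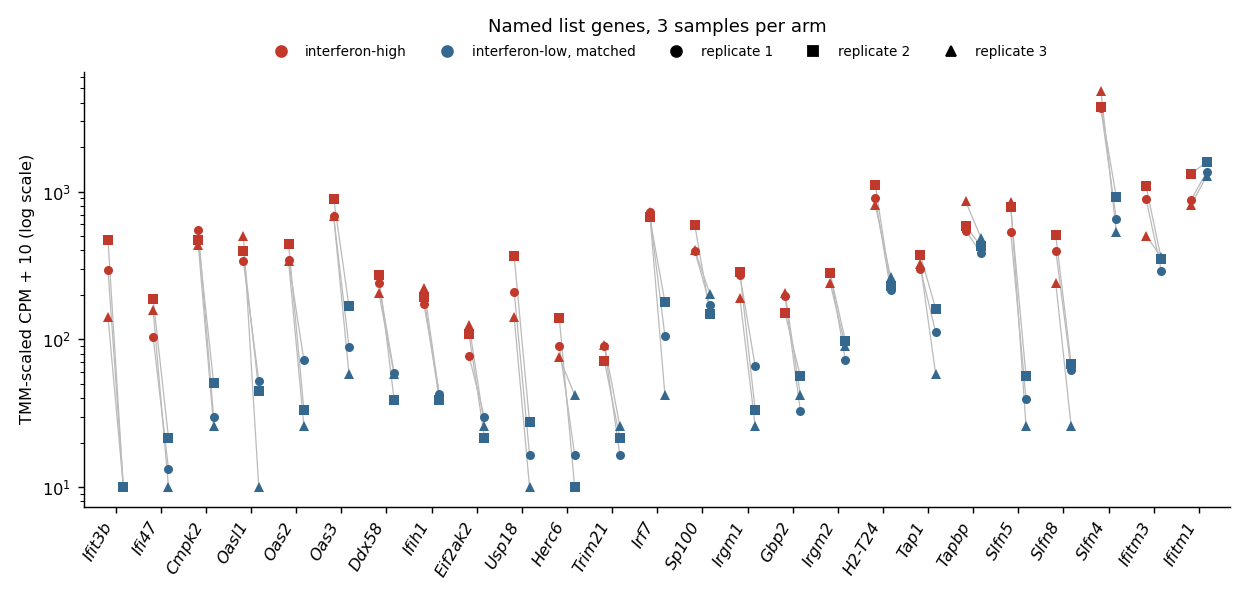
TMM-scaled CPM plus 10 on a log axis for the named genes of the gene lists, with interferon-high cells and matched interferon-low cells in 2 colours and 1 marker shape per replicate. The arms are apart in all 3 replicates for most genes, for example Slfn4 at 3664, 3744 and 4765 CPM in interferon-high cells and 641, 913 and 526 CPM in interferon-low cells, and they overlap for Ifitm1.

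Of 9 tested sensors of foreign RNA and DNA, 6 were higher, with a median log2 fold of 1.79. Ddx58, which encodes the RNA helicase RIG-I, had 230, 263 and 197 CPM in interferon-high cells, against 49.1, 29.1 and 47.8 CPM in interferon-low cells (log2 fold 2.46, SE 0.31, adjusted p = 6.52e-06). Ifih1, which encodes its relative MDA5, had 164, 184 and 214 CPM in interferon-high cells, against 32.7, 29.1 and 31.9 CPM in interferon-low cells (log2 fold 2.46, SE 0.33, adjusted p = 1.84e-05). Eif2ak2, which encodes the kinase PKR that stops translation on double-stranded RNA, had 66.7, 98 and 115 CPM in interferon-high cells, against 19.6, 11.6 and 15.9 CPM in interferon-low cells. The arms of all 3 genes were apart. For Eif2ak2 the log2 fold was 2.28 (SE 0.52, adjusted p = 0.0112), and the edgeR adjusted p was 0.190 without replicate 1 and 0.384 without replicate 2, and in DESeq2 it was 0.259. Ddx60, Adar and Zbp1 rose by log2 folds of 2.15, 1.78 and 1.79. Trim25, a ubiquitin ligase that activates RIG-I, had a log2 fold of 0.65 at an adjusted p of 0.0554, and the DNA sensor Aim2 one of 0.59 at 0.764.

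Genes of ISG15 conjugation and of interferon-linked ubiquitin and ADP-ribose transfer were higher in 10 of 14 tested members, with a median log2 fold of 1.67. Without replicate 2, 4 members were called higher, and DESeq2 also called 4. Usp18, the protease that removes ISG15 and restrains the receptor, had 200, 355 and 131 CPM in interferon-high cells, against 6.54, 17.5 and 0 CPM in interferon-low cells (log2 fold 4.61, SE 0.41, adjusted p = 3.37e-08). Herc6, the mouse ligase that attaches ISG15, had 80.1, 129 and 65.7 CPM in interferon-high cells, against 6.54, 0 and 31.9 CPM in interferon-low cells (log2 fold 3.51, SE 0.67, adjusted p = 0.00156). Trim21, a ligase that binds antibody on viruses in the cytosol, had 80.1, 61.3 and 82.2 CPM in interferon-high cells, against 6.54, 11.6 and 15.9 CPM in interferon-low cells (log2 fold 2.89, SE 0.61, adjusted p = 0.00513). These arms did not overlap, but without replicate 2 the edgeR adjusted p was 0.246 for Herc6 and 0.0885 for Trim21, and in DESeq2 it was 0.0677 for Herc6 and 0.242 for Trim21. Parp14, Rnf213 and Parp10 rose by log2 folds of 2.64, 2.61 and 2.05, and Dtx3l and Parp9, which act as a pair, by 1.76 and 1.45. Uba7, the enzyme that activates ISG15, had 117 ± 16.1 CPM in interferon-high cells and 80.5 ± 15.9 CPM in interferon-low cells, at an adjusted p of 0.507.

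Of 8 tested STAT and IRF genes, 4 were higher, and the median log2 fold was 0.91. Irf7, the factor that drives interferon alpha genes, had 714, 668 and 723 CPM in interferon-high cells, against 94.9, 169 and 31.9 CPM in interferon-low cells (log2 fold 2.65, SE 0.23, adjusted p = 1.74e-08). Sp100, a nuclear body protein on the same list, had 387, 588 and 394 CPM in interferon-high cells, against 160, 140 and 191 CPM in interferon-low cells (log2 fold 1.52, SE 0.21, adjusted p = 2.68e-05). Irf9, the DNA-binding subunit of the ISRE-binding complex, rose by a log2 fold of 1.41. In each of these genes the lowest interferon-high library lay above the highest interferon-low one. Irf1 had 546 ± 114 CPM in interferon-high cells and 446 ± 102 CPM in interferon-low cells, with an adjusted p of 0.685, and Stat3 had a log2 fold of -0.11 at 0.941.

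None of 8 tested genes of interferon receptors, JAK kinases and their feedback inhibitor Socs3 passed the test, and their median log2 fold was -0.09; the count was 0 in edgeR, 0 at an unadjusted p under 0.05 and 0 in DESeq2. Ifnar1 averaged 199 ± 29.3 CPM in interferon-high cells and 180 ± 36.2 CPM in interferon-low cells (log2 fold 0.08, SE 0.23). Ifnar2 had 135 ± 33.2 CPM in interferon-high cells and 171 ± 48.4 CPM in interferon-low cells. The chains of the interferon gamma receptor, Ifngr1 and Ifngr2, had log2 folds of -0.17 and -0.02, and the kinase Jak1 one of 0.10. All 8 genes had overlapping arms. Of 12 listed interferon genes, 9 were in the matrices, 1 had a single UMI in the matched arms and none could be tested.

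Guanylate-binding proteins and immunity-related GTPases, which attack vacuoles that hold pathogens, were higher in 5 of 8 tested members, with a median log2 fold of 1.69. Without replicate 1, 2 members were called higher, and DESeq2 called 3. Irgm1 had 264, 276 and 181 CPM in interferon-high cells, against 55.6, 23.3 and 15.9 CPM in interferon-low cells (log2 fold 2.67, SE 0.32, adjusted p = 3.09e-06). Gbp2 had 187, 141 and 197 CPM in interferon-high cells, against 22.9, 46.5 and 31.9 CPM in interferon-low cells (log2 fold 2.42, SE 0.35, adjusted p = 6.17e-05). Irgm2 had 274, 270 and 230 CPM in interferon-high cells, against 62.2, 87.3 and 79.7 CPM in interferon-low cells (log2 fold 1.86, SE 0.27, adjusted p = 4.22e-05). The arms of all 3 were apart, and the adjusted p of Gbp2 in edgeR was 0.0839 without replicate 1. That of Irgm2 was 0.16 under a gate that allowed no UMI of Csf1r or of the B and T cell genes. Cd274, which encodes PD-L1 and stands on this list as a target of interferon gamma, had 76.0 ± 59.2 CPM in interferon-high cells and 45.0 ± 16.8 CPM in interferon-low cells, at an adjusted p of 0.498.

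All 5 tested Schlafen genes were higher, with a median log2 fold of 2.48; these encode a mouse family of interferon-inducible proteins, some of which cleave RNA. Slfn5 had 527, 772 and 838 CPM in interferon-high cells, against 29.4, 46.5 and 15.9 CPM in interferon-low cells (log2 fold 4.25, SE 0.25, adjusted p = 7.87e-11). Slfn4, known from mouse myeloid cells, had 3664, 3744 and 4765 CPM in interferon-high cells, against 641, 913 and 526 CPM in interferon-low cells (log2 fold 2.48, SE 0.15, adjusted p = 7.87e-11). Slfn8 had 387, 496 and 230 CPM in interferon-high cells, against 52.4, 58.2 and 15.9 CPM in interferon-low cells (log2 fold 3.00, SE 0.26, adjusted p = 1.74e-08). None of these arms overlapped. With cells thinned to 1000 UMIs, Slfn4 had a log2 fold of 2.47 at an edgeR adjusted p of 0.405. The other two, Slfn1 and Slfn2, rose by smaller log2 folds of 1.01 and 0.46, from interferon-low levels of 672 ± 104 and 2125 ± 109 CPM.

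Class I antigen presentation was higher in 3 of 11 tested genes, and all 11 had log2 folds above 0, with a median of 0.62, where 48.8% of all genes tested lay above 0. H2-T24, a non-classical class I gene, had 898, 1103 and 805 CPM in interferon-high cells, against 206, 221 and 255 CPM in interferon-low cells (log2 fold 2.12, SE 0.16, adjusted p = 3.15e-09). Tap1, a subunit of the peptide transporter, had 290, 362 and 312 CPM in interferon-high cells, against 101, 151 and 47.8 CPM in interferon-low cells (log2 fold 1.52, SE 0.24, adjusted p = 0.000148). Tapbp, which encodes tapasin, had 534, 576 and 854 CPM in interferon-high cells, against 376, 419 and 478 CPM in interferon-low cells. The arms of these 3 genes were apart. The log2 fold of Tapbp was 0.55 (SE 0.15, adjusted p = 0.0453), and its adjusted p in edgeR was 0.408, 0.390 and 0.0831 without replicate 1, 2 or 3. Tap1 had log2 folds of 1.06 and 1.15 at adjusted p-values of 0.228 and 0.194 in edgeR with cells thinned to 1000 UMIs and under the stricter gate. B2m, the light chain of all class I molecules, had 831 ± 187 CPM in interferon-high cells and 662 ± 31.6 CPM in interferon-low cells, at an adjusted p of 0.317. The immunoproteasome genes Psmb8 and Psmb9 had log2 folds of 0.81 and 0.72 at adjusted p-values of 0.0816 and 0.0733.

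In the IFITM family of membrane proteins that block viral fusion, 1 of 4 tested genes was higher and 1 lower. Ifitm3 had 884, 1078 and 493 CPM in interferon-high cells, against 281, 337 and 351 CPM in interferon-low cells (log2 fold 1.5, SE 0.17, adjusted p = 1.63e-06), with arms apart. Ifitm1 had 871, 1311 and 805 CPM in interferon-high cells, against 1345, 1582 and 1260 CPM in interferon-low cells (log2 fold -0.49, SE 0.12, adjusted p = 0.0257). Ifitm1 was lower within each library, but its arms overlapped across libraries, and the edgeR adjusted p was 0.456, 0.163 and 0.0638 without replicate 1, 2 or 3. With cells that carried other lineages' markers left out, it was 0.469. Ifitm2 had 2240 ± 335 CPM in interferon-high cells and 2438 ± 567 CPM in interferon-low cells, at an adjusted p of 0.914.

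**Figure D5:**
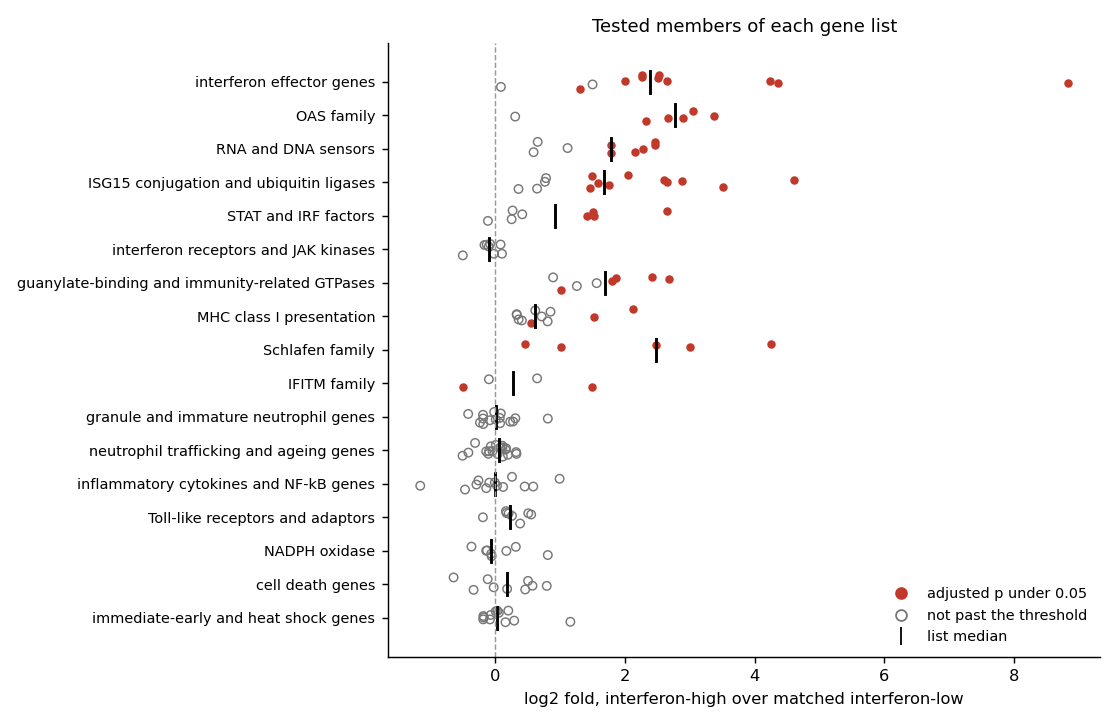
Log2 fold of each tested member of the gene lists, interferon-high over matched interferon-low cells (x axis), 1 line per list; filled points passed an adjusted p of 0.05, open points did not, and the vertical tick is the list median. The list medians are 2.39 for effectors and 2.78 for OAS genes, while the IFITM family has points on both sides of 0 and the receptor and neutrophil programme lists centre near 0.

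Between the matched interferon-high and interferon-low arms, the tested genes of the neutrophil's own programmes did not pass the threshold in either direction, in edgeR or in DESeq2. None of 15 tested granule and immature neutrophil genes was called, and their median log2 fold was 0.01; at an unadjusted p under 0.05, 2 were higher (Cybb and Lyz2) and 3 lower (S100a8, S100a9 and Retnlg). S100a8, a subunit of calprotectin, averaged 50390 ± 3525 CPM in interferon-high cells and 57641 ± 6244 CPM in interferon-low cells (log2 fold -0.19, SE 0.08, adjusted p = 0.427). Mmp8, the collagenase of specific granules, had 764 ± 211 CPM in interferon-high cells and 848 ± 157 CPM in interferon-low cells, and it was seen in 67.3%, 73.7% and 36.4% of interferon-high cells and in 72.4%, 61.4% and 54.5% of interferon-low cells. Both genes' arms overlapped. None of 20 tested trafficking and ageing genes was called, with a median log2 fold of 0.05 and 2 higher at an unadjusted p under 0.05. Cxcr4, the marrow-homing receptor that aged neutrophils gain, had 1068, 925 and 411 CPM in interferon-high cells, against 1034, 1169 and 1005 CPM in interferon-low cells (adjusted p = 0.574 in edgeR). The arms of Cxcr4 overlapped.

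The same held for 13 inflammatory cytokine and NF-kB genes, 8 Toll-like receptor and adaptor genes, 8 NADPH oxidase genes, 9 cell death genes and 12 immediate-early and heat shock genes, with median log2 folds of -0.01, 0.23, -0.06, 0.18 and 0.02. At an unadjusted p under 0.05, these lists had 3, 1, 1, 1 and 1 genes higher and 2, 0, 0, 0 and 0 lower. The lists hold 30, 17, 9, 17 and 19 genes, and members below the count filter were not tested. Some untested inflammatory genes differed, in both directions. Acod1 had 45 UMIs in interferon-high cells, against 4 in interferon-low cells. Ccl3 had 8, against 64, and Ccl4 had 3, against 18, both with 0 in replicate 3. Il1b, the precursor of interleukin-1 beta, had 3709 ± 819 CPM in interferon-high cells and 4067 ± 62.7 CPM in interferon-low cells. Mcl1, the survival protein of neutrophils, had 2982 ± 92.2 CPM in interferon-high cells and 2655 ± 227 CPM in interferon-low cells, at an adjusted p of 0.731. Among the tested genes of these lists, the values nearest to the threshold were those of Atf3 and Casp4. The stress factor Atf3 had a log2 fold of 1.16 (SE 0.35) at an adjusted p of 0.0874. Casp4, the caspase that senses lipopolysaccharide, had 0.99 (SE 0.35) at 0.218. The genes of the gate helped to choose the cells and are given as a description. Csf3r, the receptor for granulocyte colony-stimulating factor, had 11637, 11409 and 12092 CPM in interferon-high cells, against 10628, 10366 and 12804 CPM in interferon-low cells, and Cxcr2 had 2763, 3180 and 3138 CPM in interferon-high cells, against 2742, 2786 and 2663 CPM in interferon-low cells. Il1r2, the decoy receptor for interleukin-1, had 280, 282 and 263 CPM in interferon-high cells, against 219, 175 and 207 CPM in interferon-low cells. The arms of Csf3r and Cxcr2 overlapped, and those of Il1r2 did not.

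Of the 77 genes called higher, 28 were in no list other than those of cell type markers. Ifi207, a member of the DNA-binding interferon-inducible p200 family, had 60.1, 85.8 and 65.7 CPM in interferon-high cells and no UMI in interferon-low cells. This is at least 12.4-fold higher over a floor of 3 counts for the arm (adjusted p = 0.000478 in edgeR). Ifi207 passed the count filter only through interferon-high cells, so its p-value is no separate support. The same holds for the unlisted genes Helz2 and Tent5c. Trafd1, a TRAF-type zinc finger protein that dampens innate signalling, had 420, 447 and 263 CPM in interferon-high cells, against 98.2, 81.4 and 112 CPM in interferon-low cells (log2 fold 2.10, SE 0.23, adjusted p = 1.18e-06). Helz2, a nuclear helicase and coactivator, had 160, 153 and 164 CPM in interferon-high cells, against 32.7, 46.5 and 15.9 CPM in interferon-low cells (log2 fold 2.15, SE 0.35, adjusted p = 0.000204). None of these arms overlapped. Zcchc2 had 230, 196 and 115 CPM in interferon-high cells, against 72.0, 34.9 and 79.7 CPM in interferon-low cells (log2 fold 1.74, SE 0.31, adjusted p = 0.000662). The edgeR adjusted p was 0.0741 for Ifi207 without replicate 2, 0.0805 for Helz2 without replicate 1, and 0.0917 and 0.0910 for Zcchc2 without replicate 1 or 2.

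Other unlisted genes called higher included some known from red cell formation. Tent5c, a poly(A) polymerase, had 96.8, 423 and 476 CPM in interferon-high cells, against 9.82, 58.2 and 0 CPM in interferon-low cells (log2 fold 3.33, SE 0.38, adjusted p = 1.54e-06). Slc25a37, the mitochondrial iron importer mitoferrin, had 113, 453 and 460 CPM in interferon-high cells, against 39.3, 81.4 and 79.7 CPM in interferon-low cells (log2 fold 2.16, SE 0.28, adjusted p = 1.41e-05). Bpgm, which makes 2,3-bisphosphoglycerate in red cells, had 120, 741 and 1052 CPM in interferon-high cells, against 0, 163 and 31.9 CPM in interferon-low cells (log2 fold 3.00, SE 0.45, adjusted p = 0.00641). In all of these, replicates 2 and 3 were higher than replicate 1 among interferon-high cells. Fech, the last enzyme of haem synthesis, had 50.1, 490 and 329 CPM in interferon-high cells, against 32.7, 93.1 and 0 CPM in interferon-low cells (log2 fold 2.17, SE 0.39, adjusted p = 0.00073). Bpgm and Fech had overlapping arms.

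Erythroid markers moved with those genes. The summed level of the 8 erythroid markers, which include 4 haemoglobin genes, Alas2 and Slc4a1, was 4589, 50564 and 44246 CPM in interferon-high cells, against 160, 10913 and 941 CPM in interferon-low cells, with a median log2 fold of 3.59 over the 4 tested markers, of which none was called in edgeR and 3 were higher at an unadjusted p under 0.05. Cells with 100 or more haemoglobin UMIs made up 20 of all 182 interferon-high cells (11%, exact 95% interval 6.84 to 16.5), 16 of the 330 with a sum of 1 or 2 (4.85%) and 15 of the 1454 with a sum of 0 (1.03%, 0.579 to 1.70). In interferon-high cells they were 2 of 100, 14 of 59 and 4 of 23 by replicate, and in interferon-low cells 1 of 958, 10 of 216 and 4 of 280. With such cells left out before matching, 60 genes were called higher, all of them among the 77, and 2 lower. Slc25a37 then had a log2 fold of 0.71 at an adjusted p of 0.632 in edgeR, and Tent5c, Bpgm and Fech no longer reached the count filter.

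Of the 8 genes called lower in interferon-high cells, Ifitm1 alone was in a list. Pgk1, a glycolytic kinase, had 16.7, 49.0 and 32.9 CPM in interferon-high cells, against 78.5, 128 and 95.7 CPM in interferon-low cells (log2 fold -1.72, SE 0.44, adjusted p = 0.0292). Spn, which encodes the leukocyte sialoglycoprotein CD43, had 73.4, 49.0 and 65.7 CPM in interferon-high cells, against 147, 116 and 175 CPM in interferon-low cells (log2 fold -1.12, SE 0.30, adjusted p = 0.0392). Wsb1, a ubiquitin ligase adaptor, had 200, 153 and 197 CPM in interferon-high cells, against 288, 349 and 367 CPM in interferon-low cells (log2 fold -0.80, SE 0.21, adjusted p = 0.0358). The arms of these 3 did not overlap. Without replicate 1, 2 or 3, the edgeR adjusted p was 0.459, 0.399 and 0.103 for Spn and 0.139, 0.785 and 0.0676 for Wsb1, and for Pgk1 it was 0.596 and 0.323 without replicate 1 or 2. Against all interferon-low cells unmatched, the log2 fold of Spn was -0.0062 and that of Pgk1 -0.87, and with cells matched within Mmp8 status Spn had -0.63, all at adjusted p-values of 0.445 or more in edgeR. Spn lost its call in 14 of 16 alternatives, Wsb1 in 14 of 19 and Pgk1 in 9 of 15.

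Ccl5, a chemokine of NK and T cells, had 83.4, 0 and 0 CPM in interferon-high cells, against 376, 5.82 and 79.7 CPM in interferon-low cells (log2 fold -2.25, SE 0.34, adjusted p = 0.000105). Its arms overlapped, and 25 of its 25 UMIs in interferon-high cells and 115 of its 121 in interferon-low cells came from replicate 1. With Scrublet doublets removed, which took 1 cell from the matched interferon-low cells of replicate 1, its log2 fold was -0.90 at an edgeR adjusted p of 0.686, and its adjusted p was 0.178 in DESeq2 and 0.916 without the library as a block. Summed NK markers were 220, 0 and 16.4 CPM in interferon-high cells, against 435, 5.82 and 0 CPM in interferon-low cells. Hgf, Ets1 and Rab44, with log2 folds of -2.17, -1.47 and -1.08, also had overlapping arms and did not move the same way in all 3 libraries; they are named after their values were seen. All 6 basophil markers had no UMI in interferon-high cells, against 412, 785 and 0 CPM in sum, or 261 UMIs, in interferon-low cells. In the matched arms, 9 of 177 interferon-low cells held 3 or more basophil UMIs, against 0 of 177 interferon-high cells. Before matching, the counts were 30 of 1454 and 0 of 182. With cells of 3 or more UMIs of basophil, NK, platelet or monocyte markers left out before matching, 65 genes were called higher and 2 lower.

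Markers of other lineages differed between the matched arms to varying degrees. The 15 monocyte markers summed to 711, 1636 and 641 CPM in interferon-high cells, against 533, 547 and 590 CPM in interferon-low cells. In replicate 2, Fn1 had 47 UMIs in interferon-high cells, against 0 in interferon-low cells, and F13a1 had 15, against 1. There, 1 of 57 interferon-high cells and 1 of 57 interferon-low cells held 3 or more UMIs of a monocyte marker set with both genes. Of the monocyte markers, 1 of the 3 that could be tested was called: Ctss, the lysosomal protease cathepsin S, with 254, 576 and 181 CPM in interferon-high cells, against 45.8, 116 and 31.9 CPM in interferon-low cells (log2 fold 2.37, SE 0.25, adjusted p = 4.35e-07). B cell markers summed to 26.7, 67.4 and 82.2 CPM in interferon-high cells, against 19.6, 52.4 and 63.8 CPM in interferon-low cells, and T cell markers to 66.7, 12.3 and 49.3 CPM in interferon-high cells, against 39.3, 17.5 and 47.8 CPM in interferon-low cells. Dendritic cell markers, 7 of 9 of them at 0 in interferon-high cells, summed to 50.1, 42.9 and 98.6 CPM there, against 16.4, 5.82 and 15.9 CPM in interferon-low cells, and 24 of the 28 UMIs in interferon-high cells were of Bst2, which is also on the effector list. Platelet markers summed to 10.0, 196 and 0 CPM in interferon-high cells, against 81.8, 425 and 112 CPM in interferon-low cells. The part of these cells in the 77 calls was not tested beyond the counts given with cells left out. Neutrophil markers were present in both arms: median S100a8 and S100a9 UMIs per cell were 331, 244 and 314.5 in matched interferon-high cells, against 309, 310 and 322.5 in matched interferon-low cells. Fewer than 50 such UMIs were held by 15 of 177 matched interferon-high cells and 12 of 177 matched interferon-low cells. In replicate 3 these were 4 of 22 and 0 of 22.

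The ISRE core was also counted in the promoters of the other genes, since the genes called higher moved together. Of the 77, 62 matched an entry of the RefSeq promoter table, and 18 of those (29.0%) held GAAANNGAAA or its reverse complement in the 250 bases before the start. The share was 3.30% among tested genes that were not called (74 of 2245), 3.98% among all genes tested (92 of 2312) and 3.46% among all genes of the table (936 of 27025). Among genes called higher it was 12 of 36 for those in a list and 6 of 26 for those in none, and it was 0 of 5 for genes called lower. The gamma-activated site TTCNNNGAA, which is its own reverse complement, stood in 5 of 62 promoters of genes called higher (8.06%) and in 6.70% of all tested. These are counts of letters, and a match is not evidence of binding. The 18 include Ifit3b, whose stretch repeats that of the rule gene Ifit3, and Ifi207. Named genes called higher with no ISRE match included Cmpk2, Ifi47, Oasl1, Irf7, Slfn4 and Ifitm3.

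Stretches from 5 of these promoters show the element in genes of the OAS, GTPase and Schlafen families and in an unlisted gene, in GRCm38.p6, 5′ to 3′ on the gene's strand with the ISRE matches in capitals. Oas3 is chr5:120777700-120777759 (minus strand), Irgm1 is chr11:48871421-48871475 (minus strand), Gbp2 is chr3:142620579-142620638 (plus strand), Slfn8 is chr11:83020824-83020883 (minus strand) and Ifi207 is chr1:173741816-173741875 (minus strand). The nearest match lay 65 bases before the start for Oas3, 14 for Irgm1, 49 for Gbp2 and 31 for Ifi207.
Oas3: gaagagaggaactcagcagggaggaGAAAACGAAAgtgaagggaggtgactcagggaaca
Irgm1: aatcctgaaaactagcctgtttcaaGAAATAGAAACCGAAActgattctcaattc
Gbp2: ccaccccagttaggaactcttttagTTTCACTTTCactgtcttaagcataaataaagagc
Slfn8: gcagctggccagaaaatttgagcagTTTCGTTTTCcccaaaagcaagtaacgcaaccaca
Ifi207: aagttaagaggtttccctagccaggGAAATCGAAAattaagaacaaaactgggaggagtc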

How the data were processed

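The deposited matrices of the 3 libraries hold raw UMI counts for each gene in each barcode, produced by the authors with Cell Ranger 7.1.0 per the file headers, and the deposited barcode and feature lists hold identifiers and no measurement. No source used here names the genome build, and none names the version of the probe set. Every count column belongs to a labelled sample.

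Neutrophils and arms were gated on raw UMIs as the report states. Within each library, interferon-high cells, deepest first, were paired without replacement with the nearest interferon-low cell in total UMIs; those with no partner within 10% were left out. B and T cells were gated at 5 or more UMIs of their 3 genes with none of the other gates' genes. Doublets were kept; Scrublet (scanpy 1.11.5) marked 14, 2 and 0 gated neutrophils, and removing them was an alternative.

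UMIs were summed per library and arm. The 4 rule genes were taken out before library sizes were made, and the 11 gate genes were left out of the adjustment. edgeR 4.0.16 (filterByExpr, TMM, robust quasi-likelihood) was fitted with the library as a block, which pairs arms of the same library by design, and p-values were adjusted by Benjamini-Hochberg over all 2849 genes at 0.05. Levels are TMM-scaled CPM, as mean ± SD over 3 libraries where so given. SE is the log2 fold over the root of its F statistic. Summed UMIs without the rule genes were 62210 to 295036 per arm and library, and that limits calls for genes with few UMIs. The fit was tested on simulated counts, where it recovered large changes more often than small ones, so small changes in the data may pass unseen. DESeq2 1.42.0 served as an alternative.

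Named genes are, per list, the 3 highest and 2 lowest called members that moved the same way in all 3 libraries at 20 CPM or more in an arm, plus the 8 highest and 8 lowest such genes in no list. Other genes with values were chosen after these were seen. The rule, the lists and the alternatives were chosen with earlier results of these data known. Listed genes with no entry in the matrices, such as Mx1, Mx2 and Sting1, were not analysed here, and a few listed genes are not reported here. Promoter sequences are from RefSeq (GRCm38.p6).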

Additional observations from a re-analysis of the deposited data

How the results depend on the processing

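The 77 genes called higher became 43 with the DESeq2 Wald test, 123 against all interferon-low cells unmatched, 29 with cells thinned to 1000 UMIs (1107 genes tested), 28 under a gate with no UMI of Csf1r or of the B and T cell genes (1295 genes tested), 29 for cells with a rule sum of 1 or 2 (an alternative chosen after the data were seen), and 47 to 89 with a library left out. Shared with the 77 were 40, 75, 29, 26 and 26 of the first 5 of these counts. The other alternatives gave 60 to 107.

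The 8 genes called lower became 0 with DESeq2 (8 at an unadjusted p under 0.05, against 79 higher), 41 without the filter on low counts, 14 unmatched, 15 when matched on totals without the rule genes, 1 with no limit on the gap in total UMI, 2 when thinned, 4 at a rule sum of 5 or more, 3 under the stricter gate, 5 without Scrublet doublets, and 1 to 29 with a library left out. Among alternatives chosen after the data were seen, it was 3 at a rule sum of 1 or 2, 2 without cells of other lineages and 2 without haemoglobin-rich cells. Ccl5 turned to a log2 fold of 0.10 with no limit on the gap, and Wsb1 to 0.0768 at a rule sum of 1 or 2; the cause was not tested.

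Without the replicate block, 62 genes were higher and 5 lower. Tent5c, Slc25a37, Bpgm and Fech then had edgeR adjusted p-values of 0.532, 0.522, 0.779 and 0.847, Tapbp one of 0.119 and Ifitm1 one of 0.186. Of 647 values of named genes under the alternatives, 551 kept their direction and side of the threshold, 94 lost the call and 2 turned. A gene below the count filter in an alternative gave no value there and is not counted. Trim21 thus had 9 values and Ifi207 had 11, while genes such as Oas3 had 19. The mean share of interferon-high cells was 4.15% when thinned and 7.23% to 12.3% with a library left out.

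Matched arms of 22 to 98 cells a library limit all calls to genes with enough UMIs, so genes that did not pass are not shown to be equal. The rule itself counts UMIs of 4 genes, and UMIs sample only some transcripts of a cell. Arms of 1 library share depth and free RNA.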

Other observations

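Neutrophils with a rule sum of 1 or 2, which belong to neither arm, were compared with the same kind of interferon-low cells in 329 matched pairs, an alternative chosen after the data were seen, and 29 genes were called higher in edgeR. Slfn5 had a log2 fold of 2.10 (SE 0.29), Oas3 one of 1.82 (SE 0.20), Rtp4 one of 1.49 (SE 0.18), Oasl2 one of 1.16 (SE 0.12), Slfn4 one of 1.08 (SE 0.10) and Irf7 one of 1.08 (SE 0.21). In interferon-high cells the same genes had log2 folds of 4.25, 2.89, 2.51, 2.32, 2.48 and 2.65. Genes known from red cell formation were also among the 29. Bpgm had a log2 fold of 2.26 (SE 0.27), Alas2 one of 1.96 (SE 0.24) and Tent5c one of 1.53 (SE 0.31). Fech had 1.24 (SE 0.30) and Slc25a37 1.23 (SE 0.25). The haemoglobin genes Hba-a2, Hbb-bs and Hbb-bt had log2 folds above 0 but did not pass the threshold. At a rule sum of 1 or 2, 3 genes were called lower. Among them was Retnlg of the granule list, with a log2 fold of -0.33 (SE 0.07, adjusted p = 0.00296 in edgeR). In interferon-high cells Retnlg had -0.24 (SE 0.11) at an edgeR adjusted p of 0.516. Both comparisons drew their interferon-low cells from the same libraries, so they share control libraries, and the difference between them was not tested.

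Several unlisted genes called higher encode proteins with known roles in antiviral or immune defence and are named after their values were seen. Zc3hav1, which encodes the zinc finger antiviral protein that binds CpG-rich RNA, had 297, 251 and 197 CPM in interferon-high cells, against 124, 111 and 191 CPM in interferon-low cells (log2 fold 1.04, SE 0.24, adjusted p = 0.0132 in edgeR). Lgals9, which encodes galectin-9, had 294, 380 and 312 CPM in interferon-high cells, against 134, 169 and 95.7 CPM in interferon-low cells (log2 fold 1.21, SE 0.21, adjusted p = 0.000698). Clec2d, a lectin-like ligand of an NK receptor, had 871, 1085 and 674 CPM in interferon-high cells, against 455, 401 and 558 CPM in interferon-low cells (log2 fold 1.00, SE 0.16, adjusted p = 0.000249). The arms of these 3 genes did not overlap.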
